A study of Mus musculus with 4 samples.

Results

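The 10 genes described here, *Mpo*, *Elane*, *Prtn3*, *Ctsg*, *Cebpa*, *Cebpe*, *Csf1r*, *Csf3r*, *Irf8* and *Spi1*, encode granule proteins, transcription factors and receptors of the myeloid lineage. They were chosen by symbol, and all 10 were found among the 18598 genes of the table and passed a filter of at least 10 normalized counts on average, as 14858 genes did. RNA came from LSK cells, the bone marrow fraction that lacks lineage markers and carries SCA-1 and c-KIT, of C57BL/6 mice about 3 months old. The *Bptf* cKO mice carried *Bptf* f/f and *Mx1*-cre, whose promoter responds to interferon and so is not limited to stem cells, and the control littermates carried *Bptf* f/f without cre, as the study's text gives it. Both genotypes received pIpC, which induces interferon and thereby cre, and cells were sorted 10 days after induction. Each genotype had 2 libraries, replicates 1 and 2, and each library held the pooled cells of 5 mice. Because the controls lack cre, an effect of cre itself and an effect of *Bptf* deletion cannot be told apart.

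Granulocytes and monocytes arise from shared progenitors. PU.1, the product of *Spi1*, opens the myeloid program, C/EBPα directs it towards granulocytes and switches on primary granule genes, C/EBPε acts later in granule formation, and IRF8 favours monocytes and dendritic cells. The products of *Mpo*, *Elane*, *Prtn3* and *Ctsg* are stored in primary granules from the promyelocyte stage, and their RNA already appears in progenitors. *Csf1r* and *Csf3r* encode the receptors for the growth factors of macrophages and of granulocytes.

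The promoters of the granule protein genes are shown because these 4 genes each had their lowest level in the same library, control 2. In all, 7 of the 10 genes were lowest there. A relation between promoter sequence and these levels was not tested. The lines give the 250 bases before each RefSeq transcription start on GRCm38.p6, 5′ to 3′ on the strand of the gene, with matches to GAGGAA, a core bound by PU.1 and other ETS factors, in capitals on either strand. *Mpo* is at chr11:87793534-87793783 (plus), *Elane* at chr10:79886062-79886311 (plus), *Prtn3* at chr10:79879417-79879666 (plus) and *Ctsg* at chr14:56102575-56102824 (minus).
Mpo: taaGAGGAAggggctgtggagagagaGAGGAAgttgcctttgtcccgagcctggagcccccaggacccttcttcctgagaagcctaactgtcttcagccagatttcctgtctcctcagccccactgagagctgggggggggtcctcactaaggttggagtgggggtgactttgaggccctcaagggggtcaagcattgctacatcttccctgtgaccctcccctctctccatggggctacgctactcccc
Elane: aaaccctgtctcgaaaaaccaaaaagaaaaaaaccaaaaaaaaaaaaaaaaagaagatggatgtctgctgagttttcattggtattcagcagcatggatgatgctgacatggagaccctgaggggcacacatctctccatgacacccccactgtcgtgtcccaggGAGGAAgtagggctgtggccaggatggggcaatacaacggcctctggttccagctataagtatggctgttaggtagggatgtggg
Prtn3: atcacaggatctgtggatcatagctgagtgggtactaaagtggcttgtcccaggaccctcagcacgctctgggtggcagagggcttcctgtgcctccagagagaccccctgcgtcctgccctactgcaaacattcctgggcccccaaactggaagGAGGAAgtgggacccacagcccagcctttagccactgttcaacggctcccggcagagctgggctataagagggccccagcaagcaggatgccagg
Ctsg: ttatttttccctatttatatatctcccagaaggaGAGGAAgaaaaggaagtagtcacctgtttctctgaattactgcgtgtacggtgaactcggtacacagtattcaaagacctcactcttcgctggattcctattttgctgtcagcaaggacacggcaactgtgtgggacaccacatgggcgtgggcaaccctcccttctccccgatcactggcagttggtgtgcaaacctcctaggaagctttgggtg
All 4 granule gene promoters held GAGGAA or its complement, as did 23.3% of 32851 promoters of the same length. Of the 7 members with a RefSeq promoter, 5 held it, and *Cebpa* and *Irf8* did not. The match began 85 bases before the start in *Elane* and 95 bases before it in *Prtn3*, genes that lie 3072 bases apart on chromosome 10 in GENCODE vM21 and point the same way. The C/EBP motif TTGCNNAA, with any base at each N, was found in 9.56% of all promoters and in 0 of the 7 members searched. These motifs, with TGTGGT of RUNX factors and CCAAT, were chosen after the expression values were known. TGTGGT or its complement was found in *Ctsg* alone of these 4 genes, against 14.0% of all promoters, and CCAAT in *Elane* alone, against 33.8%.

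The libraries held 24875746 and 14091054 reads on listed genes for control 1 and 2 and 30134742 and 14104526 for *Bptf* cKO 1 and 2. Levels are given as normalized counts, which are reads divided by a size factor per library. *Bptf* itself, the deleted gene, had 5520.4 and 5850.1 normalized counts in the controls and 3398 and 3320 in the cKO libraries (log2 fold change -0.76, limma adjusted p = 0.0439). *Kit*, which marks LSK cells, lay between 13634 and 17051 in all 4 libraries, and *Ly6a*, which encodes SCA-1, between 726 and 1743. The replicates also differed in other ways. *Xist*, expressed from the inactive X chromosome, had 15675 and 11843 normalized counts in the libraries of replicate 2 and at most 3.25 in those of replicate 1, and the summed pluripotency genes reached 942 and 1226 in replicate 2 against 76.0 and 34.4 in replicate 1. For these reasons each replicate pair is given separately.

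None of the 10 genes passed an adjusted p of 0.05 between genotypes in limma, in either direction. The shares of all tested genes that passed were 0.37% higher and 0.37% lower. At an unadjusted p under 0.05 only *Ctsg* was reached among the 10, against 6.79% of all tested genes higher and 8.96% lower. The edgeR quasi-likelihood test and the DESeq2 Wald test on the recovered reads, without a replicate term, also called 0 of the 10, where edgeR called 0.33% of tested genes higher and 0.303% lower and DESeq2 2.14% and 3.3%. The median log2 fold change of the 10 genes was 0.37, beside 0.0010 over all tested genes. It was -0.28 between control 1 and cKO 1 (pair 1) and 1.03 between control 2 and cKO 2 (pair 2), and it was 0.075 in edgeR and 0.081 in DESeq2. These pairs join libraries by the number in their labels, which state no shared litter or day, and p-values measure the spread between pools.

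The calls depended on the control libraries. Without control 1, limma called 3 of the 10 higher (*Ctsg*, *Mpo* and *Elane*) and 0 lower, where it called 0.512% and 0.276% of all tested genes, and the median log2 fold change was 1.10. Without control 2, it called *Ctsg* higher and *Irf8* lower, where it called 0.316% and 0.114% of all tested genes, and the median was -0.37. In these fits the lone control is assumed to vary like the cKO libraries. With the replicate number as a block, limma called 4 of the 10 higher and 2 lower, against 6.03% and 8.36% of all tested genes. The block gave 2 higher and 2 lower in edgeR, against 6.0% and 8.27%, and 2 higher and 0 lower in DESeq2, against 2.57% and 3.77%.

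**Figure D1:**
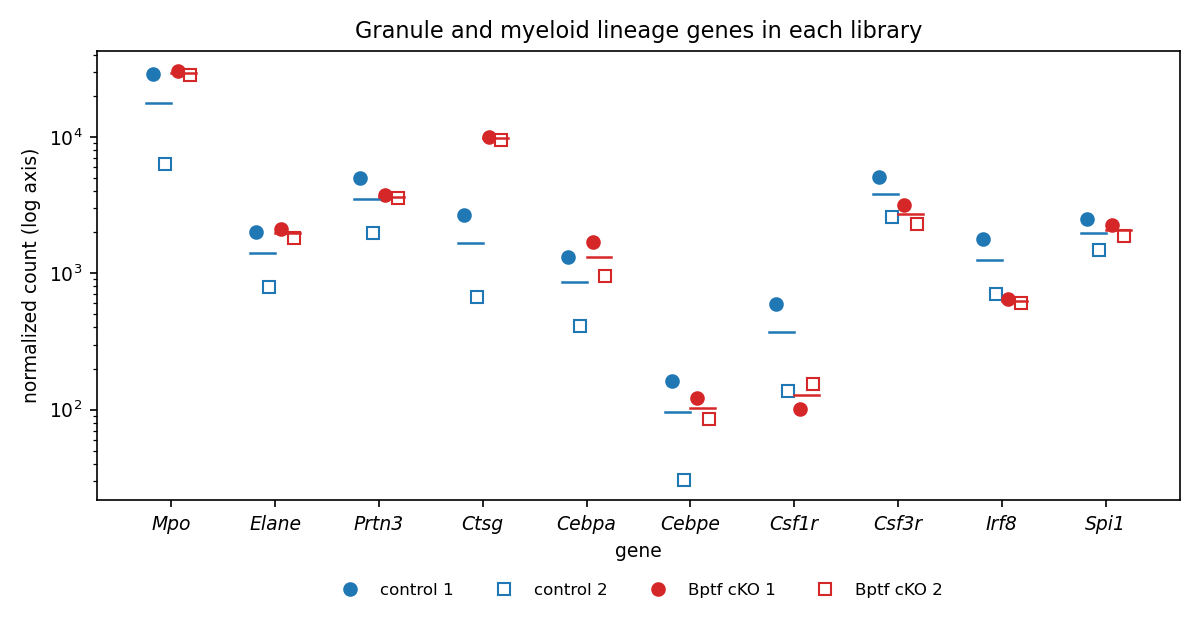
Normalized counts (log axis) of the 10 genes in the 4 libraries, with control in blue, *Bptf* cKO in red, replicate 1 as filled circles, replicate 2 as open squares and horizontal bars at the mean of each genotype (n = 2 libraries). Control 2 was below control 1 for all 10 genes, and the cKO libraries lay above both controls for *Ctsg* and below both for *Irf8*.

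The control libraries differed from each other more than the genotypes did for most of these genes. All 10 were higher in control 1 than in control 2, against 49.6% of all tested genes. For 8 of the 10 the difference exceeded 2-fold, against 5.87% of all tested genes. The cKO libraries lay closer together, with 0 of the 10 over 2-fold apart against 7.3% of all tested genes. For all 10 genes the difference between genotypes was therefore more positive in pair 2 than in pair 1. In pair 1 the cKO library was higher for 4 of the 10 genes (49.6% of all tested genes) and in pair 2 for 8 (50.5%). For 4 of them, *Prtn3*, *Cebpe*, *Csf1r* and *Spi1*, the pairs had opposite signs, as in 30.9% of all tested genes. The cKO libraries overlapped the range of the controls for 8 of the 10 genes. Both lay above both controls for 1 gene and below for 1, against 23.2% and 23.8% of all tested genes.

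*Ctsg*, the gene of cathepsin G, a serine protease of neutrophil primary granules and of mast cell granules, spans bases 56099881 to 56102574 of chromosome 14, minus strand, with 5 exons (GRCm38, GENCODE vM21). It had 2652 and 674 normalized counts in control 1 and 2 and 10040.0 and 9445 in cKO 1 and 2. Both cKO libraries were above both controls, a position shared by 23.2% of all tested genes. The cKO libraries differed by a factor of 1.06 and the controls by a factor of 3.94. The mean went from 1663 ± 1399 to 9742 ± 421 (SD, n = 2 libraries), a log2 fold change of 2.86 with a 95% interval of 1.31 to 4.42 (adjusted p = 0.128 and unadjusted p = 0.00476 in limma, standard error 0.61). Pair 1 differed by 1.92 and pair 2 by 3.81 (log2), or 3.79-fold and 14.0-fold. For *Ctsg* the adjusted p was 0.0520 in DESeq2 and 0.169 in edgeR, each without a replicate term. By size of rise *Ctsg* ranked 70 among the 14858 tested genes. Without control 1 the log2 fold change was 3.85 (limma adjusted p = 0.00186) and without control 2 it was 1.88 (limma adjusted p = 0.0157). Without cKO 1 or cKO 2 it did not pass, with adjusted p values in limma up to 0.483.

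*Mpo*, the gene of myeloperoxidase, at bases 87793581 to 87804413 of chromosome 11, was the most abundant of the 10. It had 28963 and 6313 normalized counts in control 1 and 2 and 30321 and 28192 in cKO 1 and 2. Control 2 stood apart, and the other libraries lay within 30321 and 28192. The mean was 17638 ± 16016 in control and 29256 ± 1505 in cKO cells (SD, n = 2), a log2 fold change of 1.11 with a 95% interval of -0.61 to 2.84 (adjusted p = 0.505 in limma, standard error 0.68). Pair 1 differed by 0.066 and pair 2 by 2.16 (log2). Without control 1 the log2 fold change of *Mpo* was 2.21 (limma adjusted p = 0.00990), and without control 2 it was 0.014 (limma adjusted p = 0.971).

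*Elane* and *Prtn3* encode neutrophil elastase and proteinase 3, serine proteases of the same granules, from neighbouring genes on the plus strand of chromosome 10 (79886247 to 79888215 and 79874476 to 79883174). *Elane* had 2005 and 793 normalized counts in control 1 and 2 and 2108 and 1813 in cKO 1 and 2. *Prtn3* had 4990.2 and 1961 in the controls and 3721 and 3556 in the cKO libraries, both of which lay between the controls. The log2 fold change of *Elane* was 0.63 (95% interval -0.45 to 1.71, limma adjusted p = 0.549), and pairs 1 and 2 gave 0.072 and 1.19. That of *Prtn3* was 0.22 (95% interval -0.85 to 1.29, limma adjusted p = 0.867), with -0.42 and 0.86 in the pairs. *Elane* passed without control 1 (log2 fold change 1.30, limma adjusted p = 0.0459) and had the opposite sign without control 2 (-0.037). *Med16*, the nearest gene beyond *Elane* with a value here, had 1818 and 1750.5 normalized counts in the controls and 1895 and 1968 in the cKO libraries. Some other neighbours within 50000 bases were higher in control 1, among them *Arid3a* with 648 and 376 in the controls and 673 and 621 in the cKO libraries. *Ptbp1*, also within this distance, was not, with 12076 and 12291 in the controls and 13899 and 13909 in the cKO libraries. *Plppr3* on the opposite strand overlaps the 5′ end of *Prtn3* as annotated in GENCODE by 159 bases. The RefSeq promoter of *Prtn3* shown above, 79879417 to 79879666, lies inside this GENCODE gene and beyond the end of *Plppr3* at base 79874634. *Plppr3* had 5273 and 3096 in the controls and 3400.4 and 2997 in the cKO libraries, and the strand setting of the counting is not given in the sources used here. The longest identical run between the transcripts of *Elane* and *Prtn3* was 17 bases, and at most 14 bases were shared by *Ctsg* with those of *Elane*, *Prtn3*, *Cma1*, *Mcpt8*, *Tpsb2* and *Prss57*.

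Ratios within a library do not depend on its size factor. *Ctsg* relative to *Mpo* was 0.0916 and 0.107 in control 1 and 2 and 0.331 and 0.335 in cKO 1 and 2. *Ctsg* relative to *Elane* was 1.32 and 0.85 in the controls and 4.76 and 5.21 in the cKO libraries. These ratios did not overlap between genotypes, although the level of *Mpo* and *Elane* did. *Elane* relative to *Prtn3* was 0.402 and 0.404 in the controls and 0.566 and 0.51 in the cKO libraries, also without overlap. *Mpo* relative to *Prtn3* was 5.80 and 3.22 in the controls and 8.15 and 7.93 in the cKO libraries, again without overlap. *Mpo* relative to *Elane* was 14.4 and 7.96 in the controls and 14.4 and 15.5 in the cKO libraries, which overlapped. *Spi1* relative to *Cebpa* was 1.91 and 3.61 in the controls and 1.33 and 1.98 in the cKO libraries, which overlapped. *Cebpe* relative to *Cebpa* also overlapped, at 0.125 and 0.0748 in the controls and 0.0721 and 0.0894 in the cKO libraries. How often ratios of gene pairs outside this chosen set separate was not tested. With 2 libraries per genotype an exact permutation test of a single ratio cannot go below p = 0.333, and none was run.

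**Figure D2:**
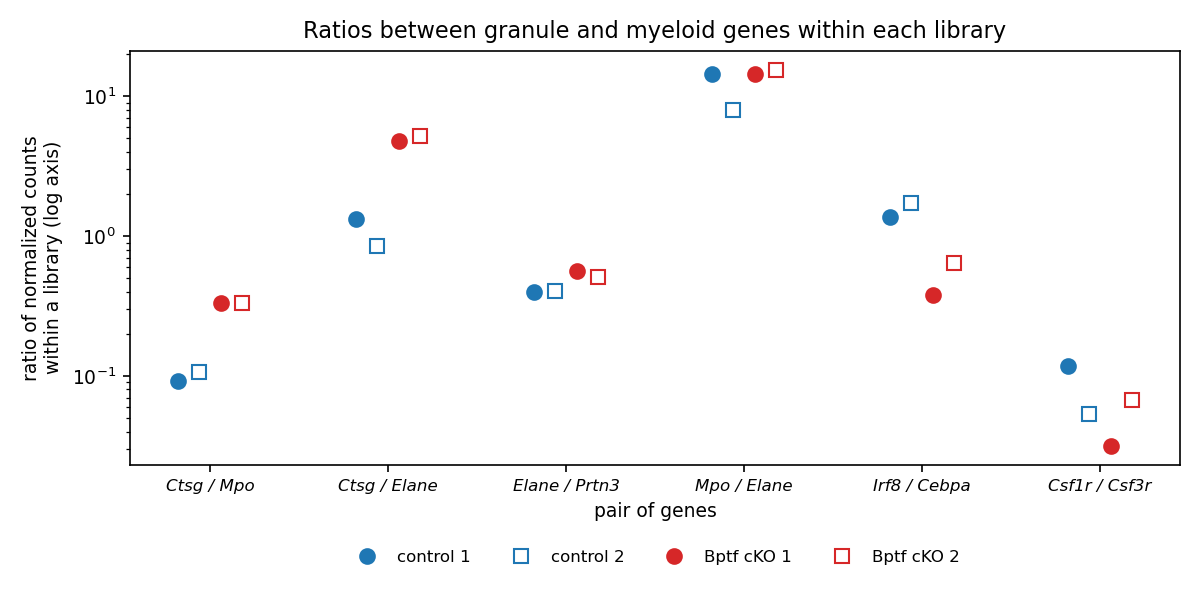
Ratio of the normalized counts of 2 genes within each library (log axis), with control in blue, *Bptf* cKO in red, replicate 1 as filled circles and replicate 2 as open squares. The ratios of *Ctsg* to *Mpo*, *Ctsg* to *Elane* and *Elane* to *Prtn3* were higher in both cKO libraries. That of *Irf8* to *Cebpa* was lower in both, and *Mpo* to *Elane* and *Csf1r* to *Csf3r* overlapped.

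The transcription factor genes overlapped between the genotypes except for *Irf8*. *Cebpa*, a single exon gene on chromosome 7 from 35119293 to 35121928, had 1305 and 407 normalized counts in control 1 and 2 and 1696 and 947 in cKO 1 and 2. Each cKO library was above the control of its number, but cKO 2 was below control 1. Its log2 fold change was 0.80 (95% interval -0.68 to 2.28, limma adjusted p = 0.587), pairs 1 and 2 gave 0.38 and 1.21, and without control 2 it was -0.042. *Cebpe*, at bases 54710360 to 54712174 of chromosome 14, had 163 and 30.5 normalized counts in the controls and 122 and 84.7 in the cKO libraries, again between the controls. It was the least sequenced of the 10, with 22 reads in control 2, and its log2 fold change was 0.52 (95% interval -1.48 to 2.51, limma adjusted p = 0.821).

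*Irf8*, on chromosome 8 from 120736358 to 120756694, had 1789 and 708 normalized counts in control 1 and 2 and 645 and 604 in cKO 1 and 2. Both cKO libraries were below both controls, as for 23.8% of all tested genes, and cKO 1 was 0.911 times control 2, the nearest control. The log2 fold change was -0.85 (95% interval -1.93 to 0.23, adjusted p = 0.424 in limma, standard error 0.43), and pairs 1 and 2 gave -1.47 and -0.23. Without control 2 it was -1.52 (limma adjusted p = 0.0411) and without control 1 it was -0.18 (limma adjusted p = 0.633). *Irf8* relative to *Cebpa* was 1.37 and 1.74 in the controls and 0.381 and 0.638 in the cKO libraries. *Gm20388*, annotated in GENCODE vM21 as protein-coding on the same strand, overlaps *Irf8* by 20337 bases and has no value here. How reads of that overlap were counted is not given in the sources used here.

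*Spi1*, on chromosome 2 from 91082390 to 91115756, varied least among the 10. It had 2497 and 1470.5 normalized counts in control 1 and 2 and 2264 and 1871 in cKO 1 and 2, with both cKO libraries between the controls. Its log2 fold change was 0.10 with a 95% interval of -0.57 to 0.77 (limma adjusted p = 0.907), and the pairs gave -0.14 and 0.35. The interval does not reach a 2-fold difference in either direction.

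The growth factor receptors were not higher in the cKO libraries on average. *Csf3r*, on chromosome 4 from 126024550 to 126044440, had 5086 and 2572 normalized counts in control 1 and 2 and 3180.1 and 2296 in cKO 1 and 2. Each cKO library was below the control of its number, and cKO 1 was above control 2. Its log2 fold change was -0.42 (95% interval -1.30 to 0.45, limma adjusted p = 0.628), with -0.68 and -0.16 in the pairs, and without control 1 it was 0.071. *Csf1r*, on chromosome 18 from 61100598 to 61132149, had 598 normalized counts in control 1 and 137, 101 and 155 in control 2, cKO 1 and cKO 2. Control 1 alone was high. The log2 fold change of -1.19 (95% interval -2.96 to 0.58, limma adjusted p = 0.489) combined -2.56 in pair 1 with 0.18 in pair 2, and without control 1 it was -0.13. *Hmgxb3*, on the opposite strand, overlaps *Csf1r* by 873 bases and lay between 1169 and 1294 normalized counts in all 4 libraries, and without the strand setting reads of the overlap cannot be assigned to either gene.

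**Figure D3:**
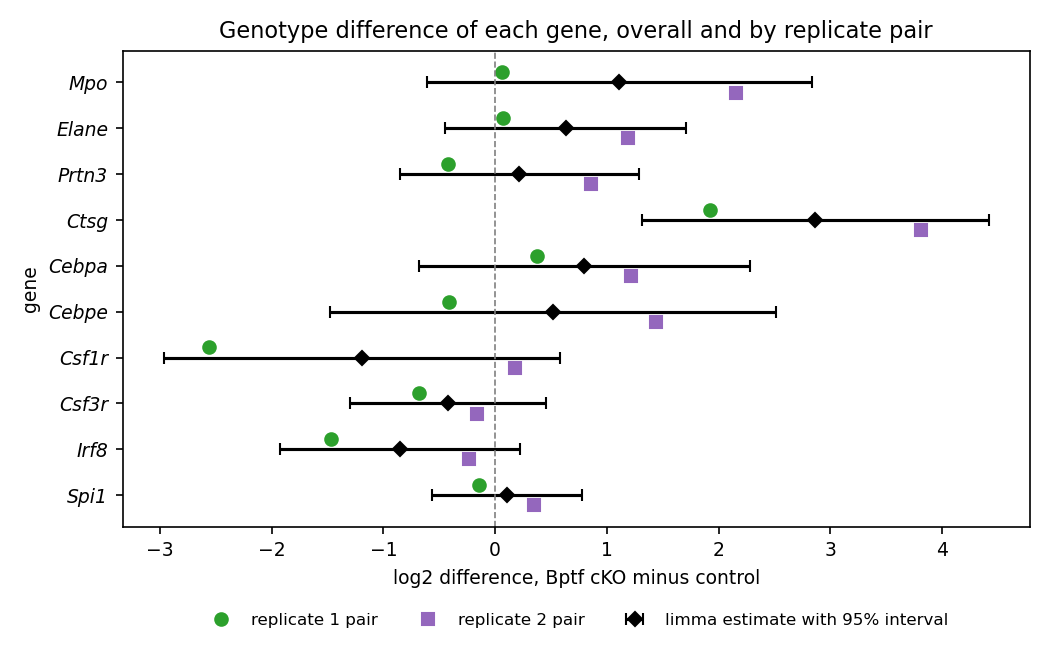
Difference between *Bptf* cKO and control (log2, horizontal axis) for each of the 10 genes, as the limma estimate with its 95% interval (black) and as pair 1 (green circles) and pair 2 (purple squares). Pair 2 lay to the right of pair 1 for all 10 genes, and only the interval of *Ctsg*, 1.31 to 4.42, left out 0.

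Levels can be compared between genes per kilobase of the longest coding GENCODE transcript. On this scale *Mpo* was first in all 4 libraries, with 10532, 2296, 11026 and 10252 normalized counts per kb in control 1, control 2, cKO 1 and cKO 2. *Ctsg* was the third in control 1 and the sixth in control 2, with 2646 and 672 per kb, and the second in both cKO libraries, with 10020.0 and 9426 per kb. By the mean over the 4 libraries *Prtn3* came after *Ctsg*, although it ranked above it in both controls, at 4869 and 1913 per kb in the controls and 3631 and 3469 in the cKO libraries, and *Elane* at 2038 and 806 and then 2142 and 1843. *Spi1* and *Csf3r* were next, with means over the 4 libraries of 996 and 943 per kb, and their ranges across libraries overlapped. *Cebpa* and *Irf8* had means of 415 and 329 per kb, with overlapping ranges, and *Cebpe* and *Csf1r* closed the order at 80.6 and 52.7 per kb, also overlapping. Between neighbours in this order, the ranges over the 4 libraries were separate at 2 steps, from *Csf3r* to *Cebpa* and from *Irf8* to *Cebpe*.

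Other genes of early granules and promyelocytes are known from the same stage of granulocyte formation. Of 17 such genes listed, 14 were tested, and 0 rose and 0 fell in limma at an adjusted p under 0.05, with 1 gene, *Ms4a3*, at an unadjusted p under 0.05. edgeR and DESeq2 also called 0, with 1 and 3 at an unadjusted p under 0.05. The median log2 fold change was 0.23, pairs 1 and 2 gave -0.060 and 0.52, and 11 of the 14 were higher in control 1 than in control 2. *Calr*, which encodes a chaperone that assists myeloperoxidase folding, had 22468 and 21632 normalized counts in the controls and 24800 and 26617 in the cKO libraries (limma adjusted p = 0.366). *Srgn*, which encodes the proteoglycan that binds granule proteases, lay between 9739 and 11571 in all 4 libraries. *Lyz2*, the lysozyme of macrophages and granulocytes, had 6123 and 3229 in the controls and 2955 and 2815 in the cKO libraries (limma adjusted p = 0.4).

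Within the transcription factor families, *Ddit3* was the member that passed. It encodes CHOP, a C/EBP protein of the stress response, and rose from 357 and 412 normalized counts in the controls to 903 and 1092 in the cKO libraries, or by 1.37 ± 0.16 on the log2 scale (estimate ± standard error, limma adjusted p = 0.0429). Of the 6 C/EBP genes 1 rose and 0 fell in limma, as in edgeR, and DESeq2 called *Cebpg* higher as well. *Cebpg*, which encodes a widely expressed C/EBP protein, had 1711 and 1702 in the controls and 2705 and 2713 in the cKO libraries, or 0.67 higher on the log2 scale (limma adjusted p = 0.0570). Of the 3 genes of the PU.1 subfamily, the 9 interferon regulatory factors and the 19 partner regulators of granulocyte and monocyte fate that were tested, 0 rose and 0 fell, and 0, 1 and 6 had an unadjusted p under 0.05. edgeR called 0 of these. DESeq2 called 1 of the interferon regulatory factors lower, and among the partner regulators *Gfi1* higher and *Trib2* and *Id3* lower. The median log2 fold changes were -0.24, -0.37 and -0.13. *Spib*, close in sequence to *Spi1* and used by lymphoid and dendritic cells, had 206 and 41.6 normalized counts in the controls and 26.0 and 32.5 in the cKO libraries (limma adjusted p = 0.393). *Irf1*, an interferon-induced activator, lay between 2048 and 3484 in all 4 libraries and overlapped between genotypes. *Myb*, needed for progenitor growth, also overlapped, between 9987 and 13714.

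Among 13 tested colony-stimulating factor ligands and cytokine receptors, 0 rose and 2 fell. *Epor*, the erythropoietin receptor, fell from 326 and 255 normalized counts in the controls to 77.3 and 69.1 in the cKO libraries (log2 fold change -1.96, limma adjusted p = 0.0443), a call that DESeq2 shared and edgeR did not. It acts in the erythroid lineage, and its controls differed by a factor of 1.28.

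Marker genes of other cells also differed between the libraries. In bulk RNA a different share of cells and a different level per cell cannot be told apart. The 15 mature neutrophil genes, such as *Ngp* and *S100a9*, summed to 55629 and 6909 normalized counts in control 1 and 2 and to 19260.4 and 9802 in cKO 1 and 2, and all 15 were higher in control 1 than in control 2. The B cell genes summed to 9435 and 2373 in the controls and 5244 and 3046 in the cKO libraries. The 9 LSK and progenitor genes summed to 56992 and 50392 in the controls and to 45056 and 42977 in the cKO libraries. Both cKO sums were below both controls, but only 3 of the 9 genes were so singly, against 23.8% of all tested genes. A negative log2 fold change was seen for 8 of the 9, and for 7400 of the 14858 tested genes. The median of the 9 was -0.60, and 0 passed in limma, edgeR or DESeq2, with 2 at an unadjusted p under 0.05 in limma. *Ly6g*, a lineage marker of neutrophils chosen here after its values were seen, had 96.1 and 4.16 normalized counts in the controls and 16.2 and 11.3 in the cKO libraries. In the neutrophil, B cell and LSK lists control 1 had the highest sum, as it had the highest level for 6 of the 10 genes. The monocyte, macrophage and dendritic genes instead had their highest sum in cKO 2, with 5186 and 3016 in the controls and 4793 and 5388 in the cKO libraries. The part of such cells in the levels of the 10 genes was not tested.

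**Figure D4:**
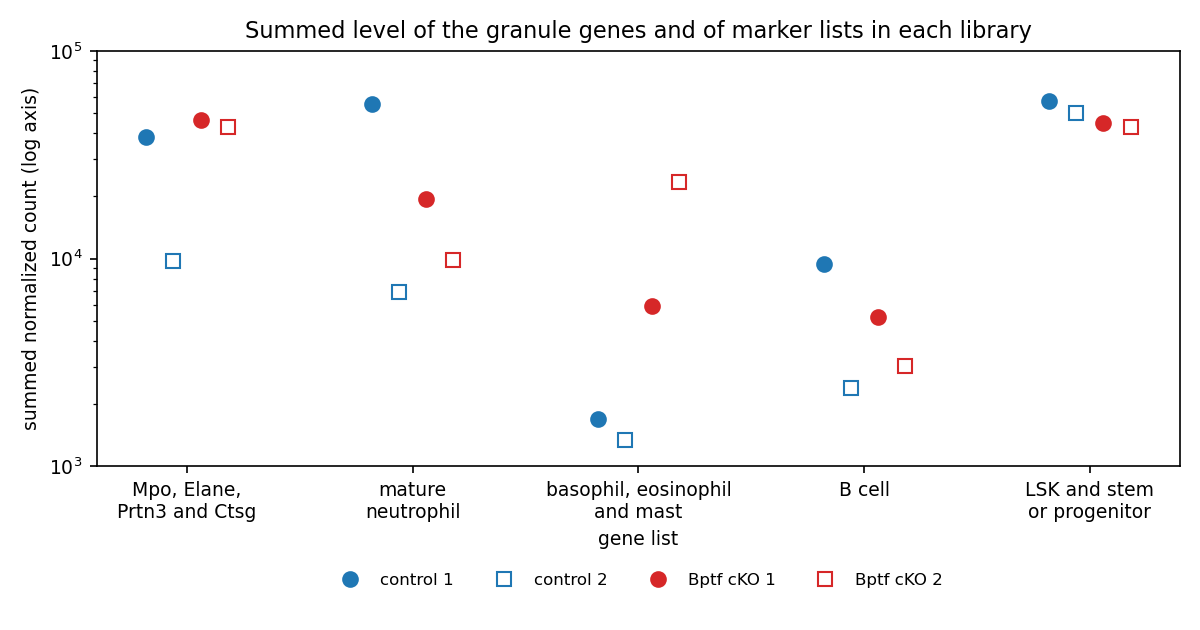
Summed normalized counts (log axis) of *Mpo*, *Elane*, *Prtn3* and *Ctsg* and of 4 marker lists in the 4 libraries, with control in blue, *Bptf* cKO in red, replicate 1 as filled circles and replicate 2 as open squares. Control 1 was highest for the mature neutrophil and B cell lists, and cKO 2 was highest for the basophil, eosinophil and mast cell list, at 23361.

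Genes of mast cells and basophils differed between the same libraries as *Ctsg*. The 10 genes of the basophil, eosinophil and mast cell list summed to 1690 and 1336 normalized counts in control 1 and 2 and to 5936 and 23361 in cKO 1 and 2. Of these 10, 7 lay above both controls in both cKO libraries and 2, *Prg2* and *Epx*, below, against 23.2% and 23.8% of all tested genes. In limma 9 had an unadjusted p under 0.05, against 6.79% of all tested genes higher and 8.96% lower. After adjustment 0 passed, as in edgeR. DESeq2 called 6 of them higher and 2 lower, against 2.14% and 3.3% of all tested genes. Their median log2 fold change was 2.88. *Cpa3*, the mast cell carboxypeptidase, had 855 and 244 in the controls and 3645 and 9868 in the cKO libraries (log2 fold change 3.71, limma adjusted p = 0.104). *Cma1*, a chymase, had 21.7 and 45.7 and then 309 and 5263, and *Mcpt8*, a basophil protease, had 167 and 104 and then 709.7 and 3022. *Mcpt8* and *Mcpt4* are the other genes with values within 50000 bases of *Ctsg*, and *Mcpt4*, chosen by this position after values were seen, had 7.75 and 29.1 normalized counts in the controls and 40.9 and 2257.5 in the cKO libraries. The genes of the list were not alike between the cKO libraries. *Ms4a2*, a subunit of the high-affinity IgE receptor chosen here after its values were seen, had 139.5 and 38.8 normalized counts in the controls and 392 and 341 in the cKO libraries, and so, like *Ctsg*, had close levels in cKO 1 and 2. *Hdc*, which makes histamine, had 378 and 126 and then 605 and 1109. The ratio of *Ctsg* to *Cpa3* was 3.10 and 2.76 in the controls and 2.76 and 0.957 in cKO 1 and 2. The part of mast cells or basophils in the level of *Ctsg* was not tested.

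The genes whose pattern was most like that of the granule protein genes were found by the distance between centred log2 values over the 4 libraries, among 10805 other genes that averaged 100 or more normalized counts. The nearest to the mean profile of *Mpo*, *Elane*, *Prtn3* and *Ctsg* were *Dtx4*, *Tyrobp*, *Tspoap1*, *Rps6ka2* and *Atp8b4*, with root-mean-square distances from 0.055 to 0.19 (log2). *Tyrobp*, the gene of a signalling adaptor of myeloid cells, had 695 and 184 normalized counts in the controls and 873 and 844 in the cKO libraries. For *Csf1r* they were *Mmp9*, *St6gal1*, *Lag3*, *Blnk* and *Rgs10*, at 0.24 to 0.41. *Mmp9*, a protease of late neutrophil granules, had 402 in control 1 and 90.1, 64.3 and 69.1 in control 2, cKO 1 and cKO 2. Over 4 libraries such likeness is a description only.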

How the data were processed

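RNA of sorted LSK cells was sequenced in 4 libraries, 2 per genotype. The deposited signal was made by the authors from gene counts, each divided by the size factor of its library. The same file holds the authors' comparison of the groups as a log2 fold change, a score with its error, and p-values, none of which were used. The submitters' processing notes name HISAT2, featureCounts, DESeq2 and GRCm38 (mm10), and versions, strand setting and annotation are not given in the sources used here. Dividing each library by its smallest value gave whole reads for 100% of values (within 0.001 reads). Groups and replicate numbers came from the sample labels, and all 4 columns were used.

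Genes averaging 10 or more normalized counts were fitted as log2(value + 1), which understates changes of low genes, with limma 3.58.1 (trend, genotype only, Benjamini-Hochberg over 14858 genes, two-sided, R 4.3.3). edgeR 4.0.16 and DESeq2 1.42.0 on recovered reads, other pseudocounts, filters and scalings, a replicate block and each library left out were alternatives. The fits were tested on simulated data that had the same dispersion for every gene and no replicate effect. That test cannot decide between fits with and without a replicate block, because it held no such effect. Recovered totals ran from 14091054 to 30134742, so counting error matters mainly for *Cebpe*. Promoters are RefSeq's for GRCm38.p6 (7 of 10 members, with chromosome 18 not searched for members) and coordinates are GENCODE vM21, both matched by symbol. The members and lists were chosen with earlier results of these data known. List genes were named for their level or, among those that passed, their change. The results of 2 genes of these lists are not reported here. Other named genes were chosen after their values were seen. Python 3.11.15 with pandas 2.3.3 and matplotlib 3.10.9 made summaries and plots.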

Additional observations from a re-analysis of the deposited data

How the results depend on the processing

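Over 13 alternatives that kept all libraries, the log2 fold changes of the 10 genes kept their sign in 130 of 130 cases and their side of the threshold in 118, and the other 12, all with a replicate block, newly passed. The cause was not tested. With the replicate block, limma called 4 genes higher (*Ctsg* 8.34e-05, *Cebpa* 0.00723, *Mpo* 0.0415 and *Elane* 0.0478, adjusted p) and 2 lower (*Irf8* 0.0215 and *Csf3r* 0.0306), against 6.03% and 8.36% of all genes. edgeR with the replicate block called 2 higher (*Ctsg* and *Cebpa*) and 2 lower (*Irf8* and *Csf3r*), and DESeq2 with it called 2 higher (*Ctsg* and *Cebpa*) and 0 lower. The replicate block in limma also changed calls of the lists. Higher and lower calls were then 2 and 1 of the early granule, 4 and 0 of the C/EBP, 0 and 4 of the interferon regulatory factor, 4 and 4 of the partner regulator, 1 and 5 of the ligand and receptor, 0 and 6 of the LSK, 0 and 4 of the mature neutrophil, 4 and 1 of the monocyte, 7 and 2 of the basophil and mast cell, 0 and 1 of the B cell, 0 and 6 of the erythroid, 0 and 2 of the megakaryocyte and 0 and 1 of the stroma genes, and 0 of the others. Same-numbered libraries deviated together from their group means (correlation 0.452 over genes), but the labels do not state that the numbers pair the pools. Leaving out a library gave 0 to 3 genes higher and 0 to 1 lower, and a median log2 fold change from -0.37 to 1.10. The log2 fold changes that changed sign then ran from -0.037 to 1.30 (*Elane*), -0.46 to 0.89 (*Prtn3*), -0.042 to 1.63 (*Cebpa*), -0.67 to 1.71 (*Cebpe*), -0.91 to 0.071 (*Csf3r*) and -0.28 to 0.48 (*Spi1*). *Spi1* turned without control 2 or cKO 1, *Csf3r* without control 1 and the others without control 2. With 2 pools per genotype each estimate rests on few samples, and *Cebpe* also on few reads, 22 in control 2.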

Other observations

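Outside the myeloid genes, the 8 erythroid genes were all lower on average in cKO LSK cells, with a median log2 fold change of -2.07 (-2.54 in pair 1 and -1.56 in pair 2). In limma 1 of them, *Epor*, passed an adjusted p of 0.05 as 4 did in DESeq2 and 0 in edgeR, and their sum went from 3373 and 1996 normalized counts in the controls to 472 and 573. The 6 megakaryocyte genes had a median of -0.51 and 0 passed.

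*Prg2* and *Epx*, granule protein genes of eosinophils picked here after their values were seen, were high in control 2 alone, the library in which 7 of the 10 genes were at their lowest. *Prg2* had 70.5 and 477 normalized counts in control 1 and 2 and 25.3 and 15.5 in cKO 1 and 2, and *Epx* had 14.0 and 252 and then 1.95 and 0. *Gfi1*, a repressor needed for granulocytes, had 1380 and 1333 in the controls and 2047 and 2256 in the cKO libraries (log2 fold change 0.66, limma adjusted p = 0.0726), and *Klf4*, a factor of monocytes, had 517 and 2583 and then 158 and 274. The 4 stroma and endothelium genes and the 2 T cell genes tested had median log2 fold changes of -0.86 and -0.22, the 14 monocyte, macrophage and dendritic genes -0.062, the 15 mature neutrophil genes -0.55, the 9 LSK and progenitor genes -0.60, the 7 B cell genes -0.18 and the 7 pluripotency genes 0.17, and 0 genes of any of these passed in limma or edgeR, with 8 in all at an unadjusted p under 0.05 in limma, and DESeq2 called *Padi4*, *Mpeg1* and *Col1a2* lower and *Fcer1g* higher.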
